A study of Drosophila melanogaster with 4 samples.

Results

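The 10 genes studied here build, organise or modify chitin: verm, serp, Cda4, kkv, knk, rtv, mmy, Gasp, obst-A and obst-E. They were followed in the wing imaginal disc of Drosophila melanogaster, a larval epithelial sac from which the adult wing and dorsal thorax arise. They were found by FlyBase identifier among 15222 gene features, and each of the 10 had a row in every library. The wtsP2 group, from third-instar larvae carrying that allele of warts (wts), and the wild-type group held 2 libraries each. The labels give strain yw for both groups. Discs were dissected by hand from wandering larvae, and total RNA was sequenced. The labels do not say how many larvae went into a library or whether each library came from its own collection, so any p-value measures only the spread between these libraries, which may be technical.

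Chitin is a polymer of N-acetylglucosamine that epithelia lay down at their apical surface as part of the cuticle and as a temporary filament inside tracheal tubes. Its sugar nucleotide is made by the product of mmy, polymerised by the synthase encoded by kkv, arranged by knk and rtv, and modified outside the cell by deacetylases such as those of verm and serp. Proteins of the Obstructor family, which include the products of Gasp, obst-A and obst-E, bind chitin through cysteine-rich domains. Warts, a kinase of the Hippo pathway, keeps the growth-promoting coactivator Yorkie in check. The comparison of wtsP2 with wild type asks which transcripts depend on it.

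Library totals were 3520970 and 3846682 counts in wtsP2, and 2112468 and 696952 in wild type. Read counts came from 1 deposited file per library, and CPM are those counts scaled to library size with trimmed mean (TMM) factors. A count of 3, the floor used here, corresponded to 0.860 and 0.836 CPM in wtsP2 and to 1.46 and 3.94 CPM in wild type, which covers counting error only. The wts gene itself had 48 and 24 counts in wtsP2 and 46 and 0 in wild type, too few to check the genotype labels (log2 fold change -0.15 ± 2.36 SE; edgeR adjusted p = 0.999). Across 7278 genes tested with edgeR's quasi-likelihood test, 0 were higher and 0 lower in wtsP2 at a Benjamini-Hochberg adjusted p under 0.05, and the smallest adjusted p was 0.142. At an unadjusted p under 0.05, 721 were higher and 193 lower, while DESeq2 called 96 higher and 86 lower. With the first wtsP2 library left out edgeR called 10 genes higher and 14 lower, and with the second left out 3 and 15. With the first wild-type library left out it called 2514 higher and 681 lower, and with the second left out 1002 and 463. Over all tested genes the median log2 fold change was 0.24. It was 1.33 with the first wild-type library left out, so single-gene values from that fit have a shifted centre. Of 10 disc markers, 8 had counts in every library, among them vg, sd, nub, ap and ci, while pdm2 and Dll were at 0 in the second wild-type library.

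All 10 chitin genes passed the filter on low counts. Of these, obst-E had 0 counts in both wild-type libraries, so it passed only through wtsP2 and could not have shown a negative value. For mmy, with 36 and 0 counts in wild type, the pass also needed counts in wtsP2. The numbers of positive and of separated genes given below include both. The set was selected on this same contrast, the difference in counts between wtsP2 and wild type, so its counts and fold changes stand here as a description, without a test. Positive log2 fold changes were found for 8 and negative ones for 2, where 58.0% of all tested genes were positive, around a median of 1.31, which was also 1.31 with obst-E at its bound. For 7 of the 10 genes both wtsP2 libraries exceeded the 2 wild-type ones, as did 32.3% of all tested genes. For 1 they lay below, against 15.1% of all tested genes. In adjusted calls the share of all tested genes was 0% in either direction. In bulk tissue, fewer cells of a type and less RNA per cell cannot be told apart.

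**Figure D1:**
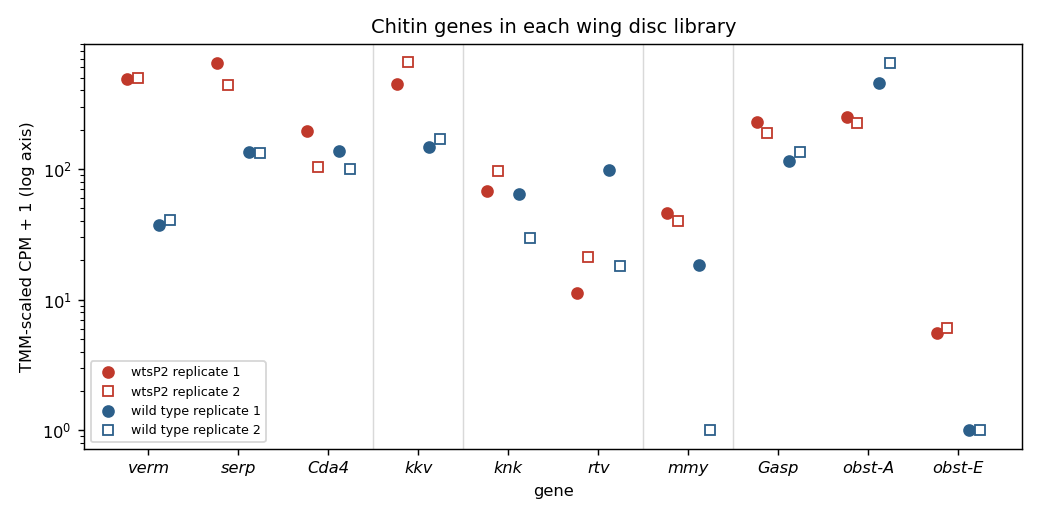
TMM-scaled CPM plus 1 on a log axis for each of the 10 chitin genes, with 1 point per library (red, wtsP2; blue, wild type; filled, replicate 1; open, replicate 2). The verm points sit at 483 and 497 CPM in wtsP2 and at 36.0 and 39.4 CPM in wild type, and obst-A runs the other way.

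The gene mmy (mummy) encodes UDP-N-acetylglucosamine pyrophosphorylase, the enzyme that makes the sugar nucleotide used for chitin and for glycosylation. It lies on chromosome 2L from 6468538 to 6473919, minus strand (build BDGP5, positions as the deposited files give them here and below). It had 156 and 140 counts in wtsP2, against 36 and 0 in wild type. Scaled to library size, these were 44.7 and 39.0 CPM in wtsP2 and 17.5 and 0 CPM in wild type. Both wtsP2 libraries were higher, and the wild-type libraries differed from each other. The fold change was imprecise, at a log2 value of 2.21 ± 2.26 (SE, n = 2 per group), and was 1.29 without the second wild-type library. Without the first wild-type library, no wild-type count remained.

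The gene kkv (krotzkopf verkehrt) encodes the chitin synthase of epidermis and trachea, an integral membrane enzyme. It lies on chromosome 3R from 1203815 to 1218587, minus strand, with 14 exons. It had 1542 and 2342 counts in wtsP2, against 299 and 128 in wild type. These were 442 and 653 CPM in wtsP2 and 146 and 168 CPM in wild type, and the groups did not overlap. The mean was 548 ± 149 CPM in wtsP2 and 157 ± 15.8 CPM in wild type (SD, n = 2 each), a log2 fold change of 1.81 ± 0.40 (SE) or 3.50-fold. With single libraries left out it ran from 1.50 to 2.09. In wtsP2, 11 and 11 of the exons had more than 10 reads, against 6 and 5 in wild type, where the totals were lower. At 5688 bases kkv is in the longest of 10 length classes of tested genes, whose median log2 fold change was 0.72. The part of length in its value was not tested. The small features inside it, CG14668 and a tRNA gene, had 0 to 9 counts per library. How reads over these features were assigned was not tested.

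The genes knk (knickkopf) and rtv (retroactive) encode proteins at the plasma membrane or in the extracellular matrix that are needed for ordered chitin. The knk gene (chromosome 3R, 5948087 to 5951383, minus strand) had 233 and 341 counts in wtsP2, against 129 and 22 in wild type. Its scaled levels were 66.8 and 95.1 CPM in wtsP2 and 62.8 and 28.9 CPM in wild type. The groups were apart by a narrow margin, set by the first wtsP2 and the first wild-type libraries. On the log2 scale the fold change was 0.81 ± 0.86 (SE). With the first wtsP2 library dropped it was 1.09 and with the second dropped 0.55; dropping a wild-type library gave 1.49 (the first) or 0.41 (the second).

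For rtv (chromosome X, 11046511 to 11047812, minus strand) the counts were 36 and 72 in wtsP2, against 200 and 13 in wild type. In CPM these were 10.3 and 20.1 in wtsP2 and 97.4 and 17.1 in wild type. The groups overlapped, since only the first wild-type library was high. A log2 fold change of -1.92 ± 1.49 (SE) became -1.47 when the first wtsP2 library was dropped and -2.46 when the second was. Dropping a wild-type library gave -0.16 (the first) or -2.64 (the second). The gene shares 571 bases of its span with Lint-1 on the plus strand. Lint-1 had 269 and 292 counts in wtsP2 and 129 and 0 in wild type, and since the strand setting of the counting is not given in the sources used here, reads of the pair may not be separable.

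The secreted deacetylases verm (vermiform) and serp (serpentine) trim acetyl groups from chitin and are known in the embryonic trachea for limiting tube length. They lie side by side on chromosome 3L, both on the minus strand, verm from 19683133 to 19688356 and serp from 19694077 to 19701109. The 5720 bases between them hold 0 other features. The verm gene had 1685 and 1781 counts in wtsP2, against 74 and 30 in wild type. Its level was 490 ± 9.54 CPM in wtsP2 and 37.7 ± 2.34 CPM in wild type (SD, n = 2 each). Each pair of libraries was close in the count files, while the wild-type pair was not in the authors' counting described below. The count files gave a log2 fold change of 3.70 ± 0.40 (SE), or 13.0-fold, above those of 92.0% of tested genes. It ran from 3.64 to 3.80 with single libraries left out.

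The size of the verm difference depended on the counting. In the authors' deposited table, which holds DESeq group means from another counting of these groups, verm stood at 1096 in wtsP2 and 221 in wild type, a fold of 4.96. Those means split into the whole counts 1956 and 1995 in wtsP2, and 123 and 117 in wild type, whose libraries that table does not number. The wild-type size factors, which scale for depth, were 0.942 and 0.376 in that order, so the wild-type pair lay apart once scaled. In wtsP2 the recovered order, here and below, appears to reverse that of the files: rtv split into 72 and 36, against 36 and 72. The verm difference between the countings lay mainly in wild type, where verm had 74 and 30 counts in the files. edgeR on these recovered counts gave a log2 fold change of 2.46 ± 0.50 (SE). Of the 9 exons of verm, 5 and 8 had more than 10 reads in wtsP2, against 2 and 1 in wild type.

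The serp gene had 2251 and 1578 counts in wtsP2, against 277 and 100 in wild type. These were 645 and 440 CPM in wtsP2 and 135 and 131 CPM in wild type, with no overlap. Its log2 fold change was 2.03 ± 0.39 (SE), or 4.08-fold, and ran from 1.76 to 2.29 with single libraries left out. The authors' deposited table gave 1134 in wtsP2 and 283 in wild type, a fold of 4.01. Its recovered counts of 1733 and 2341 in wtsP2, and 277 and 102 in wild type, lay near those of the files, in wtsP2 in the reverse order.

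The deacetylase family member Cda4 (chromosome X, 21985466 to 22034545, minus strand) spans 49080 bases with 1929 bases of exon. It had 677 and 367 counts in wtsP2, against 280 and 76 in wild type. In CPM these were 194 and 102 in wtsP2 and 136 and 99.7 in wild type, so that the groups overlapped. Its log2 fold change was 0.33 ± 0.54 (SE). Dropping a wtsP2 library gave -0.17 (the first) or 0.72 (the second), and dropping a wild-type library gave 0.58 (the first) or 0.16 (the second). The authors' deposited table ran the other way, with group means of 13746 in wtsP2 and 98262 in wild type, a fold of 0.140. No direction can therefore be given for Cda4.

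**Figure D2:**
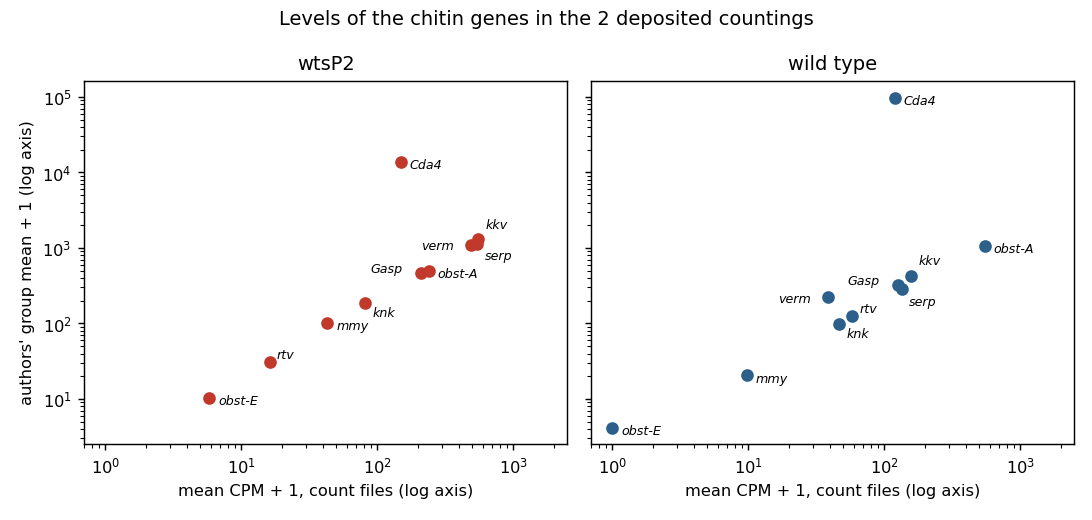
Mean CPM plus 1 from the count files against the authors' deposited group mean plus 1, both on log axes, for the 10 genes in wtsP2 (left) and wild type (right). The Cda4 point lies far above those of the other 9 genes, at 13746 in wtsP2 and 98262 in wild type.

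In the count files the makeup of the deacetylase reads differed between the groups. Of the reads on the 3 deacetylase genes, verm held 36.5% and 47.8% in wtsP2, against 11.7% and 14.6% in wild type. The share of serp was 48.8% and 42.4% in wtsP2 and 43.9% and 48.5% in wild type, with the groups interleaved. Cda4 held 14.7% and 9.85% in wtsP2 and 44.4% and 36.9% in wild type. These shares rest on 4613 and 3726 reads in wtsP2 and on 631 and 206 reads in wild type. They hold for the count files only. In the authors' deposited table Cda4 outweighed verm and serp in both groups, at 13746 in wtsP2 and 98262 in wild type.

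Among the chitin-binding proteins, Gasp, an abundant protein of the tracheal lumen, had 793 and 671 counts in wtsP2 and 237 and 102 in wild type. It lies on chromosome 3R from 1914951 to 1926609, minus strand. Its level was 207 ± 28.5 CPM in wtsP2 and 125 ± 13.0 CPM in wild type (SD, n = 2 each). The libraries did not overlap, and the log2 fold change was 0.73 ± 0.41 (SE), between the quartiles of all tested genes (-0.56 and 1.21).

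The gene obst-A, whose product forms a scaffold in the assembling cuticle, was the only one of the 10 with both wtsP2 libraries below both wild-type libraries. It lies on chromosome X from 20110934 to 20114254, plus strand. Its counts were 875 and 799 in wtsP2, against 925 and 489 in wild type, where the libraries were smaller. Scaled, these were 251 and 223 CPM in wtsP2 and 451 and 642 CPM in wild type. It had a log2 fold change of -1.20 ± 0.37 (SE), which ran from -1.43 to -0.89 with single libraries left out. The authors' deposited table gave 492 in wtsP2 and 1075 in wild type, a fold of 0.457.

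The gene obst-E (chromosome 2L, 5762553 to 5766141, minus strand), known for shaping the larval and pupal body, had the lowest level of the 10. It had 16 and 18 counts in wtsP2, against 0 and 0 in wild type. Against a floor of 3 counts over the wild-type group, it was at least 4.51-fold higher in wtsP2 if only counting error is allowed for. Differences between wild-type libraries, as for mmy with 36 and 0 counts, are not covered by this bound. The authors' deposited table listed it at 9.42 in wtsP2 and 3.18 in wild type, which split into 18 and 16 counts and into 6 and 0 counts, a fold of 2.96. The bound therefore holds for the count files and not for that table.

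**Figure D3:**
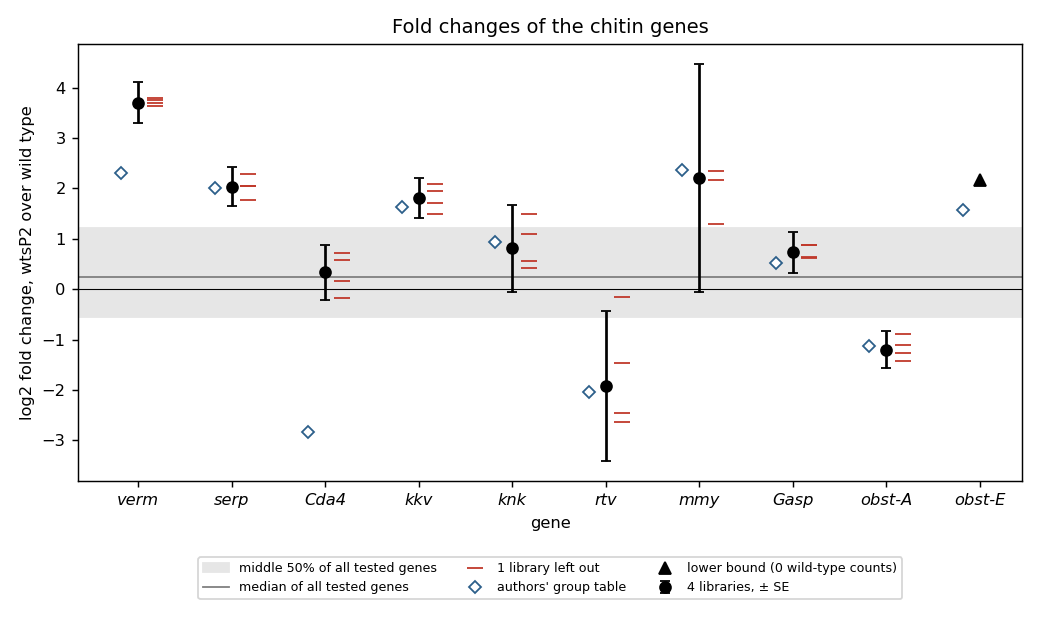
Log2 fold changes of wtsP2 over wild type for the 10 genes: black points with SE from all 4 libraries, red dashes with 1 library left out, blue diamonds from the authors' deposited table, and a triangle for the bound of obst-E. The grey band is the middle 50% of all tested genes with all 4 libraries. In every version shown verm, serp and kkv lie above this band and obst-A below it. Without the first wild-type library the median of all tested genes was itself 1.33, so the band does not apply to that dash.

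Compared per length, as RPKM (the authors' counts scaled to gene length and library size), the genes stood in a different order in each group. In wtsP2 the highest were serp at 210 ± 64.4 RPKM and verm at 202 ± 4.25 RPKM (SD, n = 2), whose libraries overlapped. Below them came obst-A at 124 ± 15.4, Gasp at 105 ± 18.7, kkv at 93.3 ± 21.8 and Cda4 at 75.5 ± 35.8 RPKM, each overlapping the next. The lowest were knk at 29.5 ± 6.12, mmy at 18.6 ± 2.53, rtv at 14.1 ± 5.87 and obst-E at 2.59 ± 0.0566 RPKM, and of these neighbours only mmy and rtv overlapped.

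In wild type, obst-A stood alone at the top with 309 ± 101 RPKM (SD, n = 2). Gasp at 68.1 ± 12.7, Cda4 at 63.5 ± 8.78, serp at 55.0 ± 3.46, rtv at 55.0 ± 52.2 and kkv at 29.0 ± 5.28 RPKM formed a run in which neighbours overlapped, while kkv and the gene below it, knk, did not. The verm gene came eighth of the 10, at 16.8 ± 2.43 RPKM, next to knk at 17.6 ± 7.95 RPKM, which it overlapped. It lay above mmy at 3.92 ± 5.54 RPKM, while obst-E was at 0 in both libraries.

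Ratios between genes within a library do not depend on how libraries are scaled. Per length, verm stood to serp at 0.803 and 1.21 in wtsP2, against 0.287 and 0.322 in wild type. Its ratio to the synthase gene kkv was 2.63 and 1.83 in wtsP2 and 0.596 and 0.565 in wild type. For serp that ratio was 3.28 and 1.51 in wtsP2 and 2.08 and 1.76 in wild type. In these files the verm ratios did not overlap between the groups, while the serp to kkv ratios did. The verm to serp ratio depended on the counting: the counts recovered from the authors' deposited table gave 1.21 and 0.914 in wtsP2 and 0.476 and 1.23 in wild type, which overlap. From that table the verm to kkv ratio was 1.74 and 2.42 in wtsP2 and 0.823 and 1.62 in wild type, without overlap. In both recovered ratios the wtsP2 libraries appear in the reverse order of the files. Gasp stood to obst-A at 0.880 and 0.815 in wtsP2, against 0.249 and 0.203 in wild type, again without overlap. The ratio of knk to kkv was 0.323 and 0.311 in wtsP2 and 0.921 and 0.367 in wild type, and that of Cda4 to kkv was 1.29 and 0.462 in wtsP2 and 2.76 and 1.75 in wild type.

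**Figure D4:**
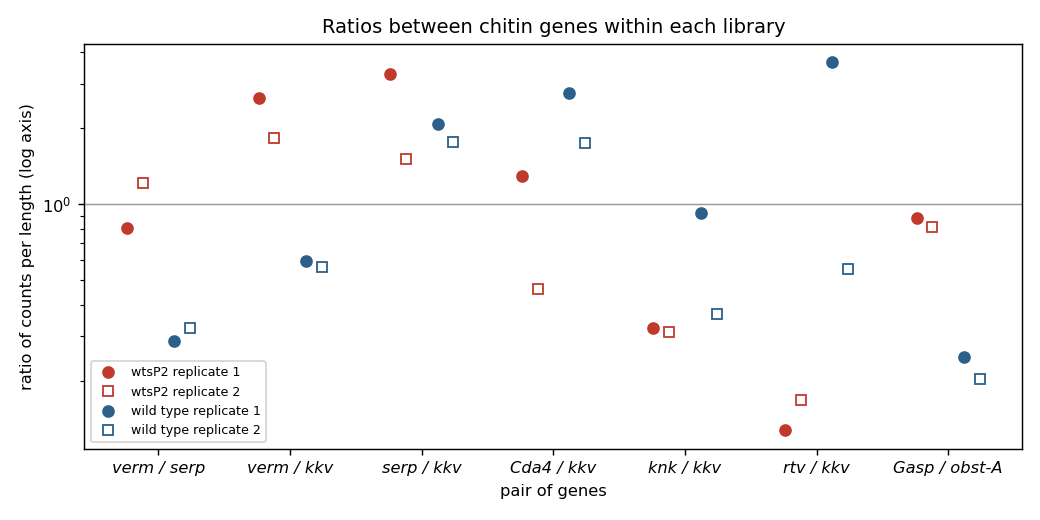
Ratios of counts per length between pairs of chitin genes within each library, on a log axis (red, wtsP2; blue, wild type; filled, replicate 1; open, replicate 2). The verm to kkv ratio is 2.63 and 1.83 in wtsP2 and 0.596 and 0.565 in wild type, while the serp to kkv ratios of the groups overlap.

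Among 5609 tested genes with at least 200 counts that are not members, 5 had profiles nearest to that of verm over the 4 libraries, by Euclidean distance of log2 CPM centred on each gene's mean. They were FBgn0053291 (distance 0.639), BTBD9 (0.671), Usp12-46 (0.805), uif (0.845) and snoRNA:Psi18S-525j (0.885). FBgn0053291 had 950 and 1464 counts in wtsP2 and 72 and 18 in wild type. The transmembrane protein gene uif had 4697 and 7196 counts in wtsP2 and 412 and 178 in wild type. The other profiles rest on few wild-type counts: 2 and 1 for BTBD9, 4 and 1 for Usp12-46 and 10 and 3 for snoRNA:Psi18S-525j. Of the members, serp was at 1.73 from verm and kkv at 1.93, and rtv was farthest at 5.48. The distance of obst-E was 0.885, but it had 34 counts in wtsP2 and 0 in wild type. That is below the minimum of 200 counts, and its distance depends on the prior count of 2. With 4 libraries, such distances describe these libraries and no more.

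A further 42 genes of chitin metabolism and binding were read from the same fit, of which 26 were tested. Of the 16 others, 12 were at 0 in every library, among them the gut chitin synthase gene Chs2, the deacetylase gene Cda9 and reb, whose product acts with the synthase. Of the 26, 0 were higher and 0 lower in wtsP2 at an adjusted p under 0.05, as for all tested genes (0%). At an unadjusted p under 0.05, 1 was higher (3.85% of the 26, against 9.91% of all tested genes) and 3 were lower (11.5%, against 2.65%). Their median log2 fold change was 0.40, with 14 positive and 12 negative. The wtsP2 libraries were both above the wild-type ones for 11 (42.3%, against 32.3%) and below them for 4 (15.4%, against 15.1%).

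On the route from trehalose and glucose to the sugar nucleotide, 7 of 8 genes were tested, with a median log2 fold change of 0.63, and 0 passed. Gfat1, which encodes the entry enzyme of the hexosamine pathway, had 1805 and 1431 counts in wtsP2 and 739 and 177 in wild type (0.63 ± 0.40 SE; edgeR adjusted p = 0.724). For the acetyltransferase gene Gnpnat the counts were 732 and 920 in wtsP2, against 581 and 8 in wild type, a wide split between the wild-type libraries. The mutase gene nst had 143 and 271 counts in wtsP2 and 229 and 144 in wild type (-1.36 ± 0.63 SE; edgeR adjusted p = 0.504).

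Chitinases and hexosaminidases, which degrade chitin, had 9 tested members of 13, with a median log2 fold change of 1.14, and 0 passed. The largest counts, not scaled for length, were those of Cht10, with 4945 and 7078 in wtsP2 and 1853 and 715 in wild type. Its log2 fold change was 0.88 ± 0.35 (SE, edgeR adjusted p = 0.398). Cht6 had 1043 and 743 counts in wtsP2 and 186 and 50 in wild type (1.69 ± 0.46 SE; edgeR adjusted p = 0.368). The hexosaminidase gene Hexo2 lay the other way, with 74 and 80 counts in wtsP2 and 205 and 118 in wild type (-2.54 ± 0.74 SE; edgeR adjusted p = 0.368).

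The imaginal disc growth factors, chitinase-like proteins without enzyme activity, had 5 tested members of 6 and a median log2 fold change of -2.25. Log2 fold changes were negative for 4 and positive for 1, and 0 passed. Idgf3 had 22 and 31 counts in wtsP2 and 130 and 148 in wild type (-4.09 ± 1.01 SE; edgeR adjusted p = 0.368). Idgf6 had 203 and 184 counts in wtsP2 and 381 and 256 in wild type (-2.25 ± 0.50 SE; edgeR adjusted p = 0.368). The other two negative ones, Idgf1 and Idgf2, were at 0 in 1 library of each group. Idgf4 was the positive one, with 362 and 406 counts in wtsP2 and 38 and 54 in wild type. Of the other chitin-binding proteins, 3 of 10 were tested and 0 passed. Among them obst-B, an Obstructor gene like obst-A, had 281 and 367 counts in wtsP2 and 108 and 0 in wild type (1.77 ± 1.85 SE; edgeR adjusted p = 0.919). The deacetylase gene Cda5 had 35 and 74 counts in wtsP2 and 34 and 0 in wild type.

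Calls among these genes depended on single wild-type libraries. With either one dropped, the spread was estimated from the wtsP2 pair alone. That pair correlated at 0.867 in log2 CPM, against 0.564 for the wild-type pair, so such calls are too liberal if wild type varies more. Genes called higher in both fits were Cht6 (log2 fold change 1.95 with the first dropped and 1.52 with the second), Cht5 (2.69 with the second dropped) and Hex-A (4.58 with the second dropped). With the first dropped, Cht5, Hex-A, Cda5 and obst-B had no wild-type count left, and Gnpnat had 8. Genes called lower in both were Hexo2 (-2.82 and -2.16), Idgf3 (-4.68 and -3.04) and Idgf6 (-2.61 and -1.72). Dropping the first alone also called Gfat2, Gnpnat, Cht2, Hexo1, Cda5 and obst-B higher and nst and Idgf1 lower, and dropping the second alone called Idgf4 and Cht7 higher and Cht8 lower. Over all tested genes the median log2 fold change was itself 1.33 with the first dropped and 0.28 with the second. With either wtsP2 library dropped, edgeR called 0 higher and 0 lower.

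Several of the 10 genes are also expressed in trachea, and branches of the tracheal system lie on the wing disc. The summed level of 11 tracheal genes outside the set was 2720 and 3520 CPM in wtsP2, against 885 and 1080 CPM in wild type. Most of it came from uif and from pio, which had 3121 and 2831 counts in wtsP2 and 806 and 451 in wild type. The sum therefore mainly follows these 2 genes and is not a measure of tracheal cells. Of the 10 listed genes that were tested, 8 had positive log2 fold changes. For 6 the 2 wtsP2 libraries were above the wild-type ones, against 32.3% of all tested genes. The defining tracheal regulator trh had 373 and 414 counts in wtsP2 and 140 and 10 in wild type. The tracheal receptor gene btl had 46 and 67 counts in wtsP2 and 27 and 96 in wild type, and rib had 0 and 2 counts in wtsP2 and 0 and 0 in wild type. The part of tracheal cells in the chitin gene values was not tested.

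Other tissues near the disc differed as well. Larval cuticle genes summed to 9.75 and 11.7 CPM in wtsP2 and to 301 and 420 CPM in wild type, with 12 of 14 at 0 in wtsP2 and 8 of 14 at 0 in wild type. Fat body genes summed to 1410 and 1660 CPM in wtsP2 and to 20500 and 18700 CPM in wild type, with all 8 lower in both wtsP2 libraries. Haemocyte genes summed to 171 and 255 CPM in wtsP2 and to 848 and 844 CPM in wild type. Of the 7 tested, 5 were lower in both wtsP2 libraries, against 15.1% of all tested genes. The groups overlapped for Hml (83.1 and 150 CPM in wtsP2, 87.2 and 197 CPM in wild type). They also overlapped for Pxn (36.7 and 77.0 CPM in wtsP2, 78.9 and 61.7 CPM in wild type). The sum is therefore not a measure of haemocytes. The 10 disc markers summed to 2840 and 2830 CPM in wtsP2 and to 2710 and 2290 CPM in wild type. Gut genes summed to at most 9.20 CPM in wtsP2 and at most 49.7 CPM in wild type. The part of these tissues in the chitin gene values was not tested.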

How the data were processed

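Total RNA of hand-dissected wing discs had been prepared with a SOLiD total RNA kit, per the labels' protocols. HTSeq, DESeq, BDGP5 and dm3 are named in the submitters' processing notes. The aligner was not given in the sources used here, nor was the strand setting. Per-library read counts for 15222 features were deposited with RPKM, per the file headers, as was a table of DESeq mean signal per group with the authors' fold, the ratio of wtsP2 to wild type. All nonzero means of that table (9875 in wtsP2, 8286 in wild type; 100% within a relative tolerance of 1e-09) split into 2 whole counts, 60 and 5 of them in several ways, Cda4 among these. edgeR on those recovered counts called 0 genes higher and 0 lower. The table's log2 column contains spreadsheet errors and was not used.

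Counts were filtered with filterByExpr (7278 of 15222 kept), scaled by TMM and tested with edgeR 4.0.16 in R 4.3.3 (robust quasi-likelihood F test, Benjamini-Hochberg over all tested genes, threshold 0.05). DESeq2 1.42.0 and limma 3.58.1 served as alternatives. SE is the fold change (log2) divided by the root of F. log2 CPM used a prior count of 2. Names were taken from the reference annotation, through identifiers for 14347 features and through transcripts for 422, among them Gfat1, ap, wg, btl, PPO1 and Nplp2. Members, gene lists and tests were chosen with earlier results of these data known. Named were wts, all members, tested genes of the chitin list, the 5 profiles nearest to verm and marker genes. The procedure was tested on simulated data. Promoter motifs were not searched here.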

Additional observations from a re-analysis of the deposited data

How the results depend on the processing

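No adjusted calls were made by edgeR over all genes in either direction with RLE scaling, library totals only, at least 20 counts in 2 libraries, an adjusted p under 0.01 or the recovered counts. Calls over all genes, higher and lower, were 21 and 16 without a filter, 96 and 86 in DESeq2 (1997 genes without an adjusted p), 103 and 23 in limma-voom and 69 and 38 with the replicate block. Leaving out 1 library gave 3 to 2514 higher and 14 to 681 lower. In these fits the lone library is assumed to vary as the other group does. For the 42 other chitin genes, DESeq2 called 0 higher and 2 lower (Idgf3 and Idgf6), limma-voom 1 higher (Hex-A) and 0 lower, and the replicate block 0 and 0, while leaving out 1 library gave 0 to 9 higher and 0 to 5 lower. The cause of these differences was not tested.

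Deviations of same-numbered libraries correlated at 0.00801, which shows no pairing by replicate number. With 2 libraries per group it cannot exclude one. The replicate block kept the sign of all 10 chitin genes. Their signs also held under both other scalings, without a filter, in DESeq2 and in limma-voom. Over all tested genes, however, the median log2 fold change was 0.77 in limma-voom and 0.76 with the block, against 0.24 in the main fit. A positive sign in those fits is thus read from a shifted centre. In limma-voom, Cda4 (0.14) and knk (0.54) lay below that median. The authors' deposited table kept 9 of 10 signs, all but that of Cda4 (-2.84). Fitted values were wide for mmy (4.76 in limma-voom, against 2.21). Depth sets the bound for obst-E, since 3 counts over the wild-type group were 1.07 CPM, against 4.81 CPM in the pooled wtsP2 group. For mmy the second wild-type library was at 0, although its floor of 3.94 CPM lay below the 17.5 CPM of the first.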

Other observations

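Cda4 had the highest wild-type mean of all 15147 genes in the authors' deposited table, and ranked 8 in wtsP2. It held 0.617% of the summed means in wtsP2 and 4.21% in wild type. Among genes with at least 20 mean CPM in the count files, the ratio of the authors' mean to that CPM had a median of 2.17 in wtsP2 (5051 genes) and 2.22 in wild type (4825 genes). For Cda4 the ratio was 95.6 in wtsP2 and 813 in wild type, the largest of either group. For verm it was 2.33 in wtsP2 and 5.66 in wild type, the latter above the 95th percentile of 4.16. In the BDGP6 annotation the span of Cda4 holds 9 transposable elements and 0 other genes. How either counting assigned reads there was not tested.

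Among the chitin list, the hexokinase gene Hex-A had 132 and 196 counts in wtsP2 and 4 and 0 in wild type (log2 fold change 5.32 ± 2.28 SE, edgeR adjusted p = 0.444). The chitinase gene Cht5 had 128 and 177 counts in wtsP2 and 14 and 0 in wild type (3.56 ± 2.29 SE, edgeR adjusted p = 0.725). The cuticle gene Lcp65Ag2 had 31 and 40 counts in wtsP2 and 0 and 0 in wild type, against the direction of Lcp4, with 3 and 2 counts in wtsP2 and 472 and 225 in wild type. These genes were chosen after their values were seen.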
